A study of Mus musculus with 6 samples.

Results

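Endothelial progenitor identity genes were examined for the histone mark H3K9me3 in endothelial progenitor cells (EPCs) of mouse bone marrow. The list held 10 genes: Pecam1, Cdh5, Eng and Vwf of the endothelial surface and its secretions, Ly6a, Cd34 and Kit of the progenitor surface, and the transcription factor genes Erg, Tal1 and Gata2. A genomic region counted for a gene where the authors' annotation gave it that gene's name. By this rule 6 of the 10 genes had 34 regions in all, out of 58511 regions assigned to 21446 genes, and 4 genes had none. H3K9me3 was mapped by CUT&Tag, in which an antibody directs a transposase to the marked chromatin so that nearby DNA is cut and sequenced. The cells were lineage-depleted, Sca-1+ and CD31+ bone marrow cells that had been sorted with magnetic beads and grown in endothelial medium without added estrogen. They came from C57BL/6J mice bought at 8 weeks of age, which were males (M-EPC), intact females (F-EPC) or females ovariectomized at about 35 days of age (OVX-EPC), with 2 libraries in each group. The sources name no transgene or deletion in any group. The sources do not say whether the 2 libraries of a group came from separate animals, so the p-values below measure the spread between libraries, which may be technical.

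H3K9me3 is trimethylated lysine 9 of histone H3, a mark that is bound by HP1 proteins and is known for keeping repeats and genes of other lineages silent. The listed genes are among those used to recognise cells between blood and vessel: CD31, encoded by Pecam1, and VE-cadherin, encoded by Cdh5, hold endothelial junctions together, while Sca-1, encoded by Ly6a, together with CD34 and the receptor KIT, marks blood stem and progenitor cells. Tal1, Gata2 and Erg encode transcription factors needed in both lineages. Pecam1 and Ly6a encode the antigens used for the sort. CUT&Tag measures the mark and not expression, so these values do not check the identity of the cells. In bulk cells, a larger share of marked cells and more of the mark per cell cannot be told apart.

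The 6 libraries held 288353 to 573821 reads in regions, and the median region up to the stop described next held 5 to 8 reads in a library. F-EPC replicate 1 had no read after position 30557137 of chromosome 16, with chromosome names sorted as text, and F-EPC replicate 2 had none after position 110808853 of chromosome 3. Only the 26999 regions up to the first stop, on chromosomes 1 and 10 to 15 and the start of 16, could be compared with F-EPC. Of the genes with regions, this left Pecam1 for all 3 groups. Erg lay between the stops and had reads of F-EPC replicate 2 only. Cdh5, Vwf, Gata2 and Tal1 could be compared only between OVX-EPC and M-EPC.

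The mark lay mostly away from the starts of these genes. Of the 34 regions, each 400 bp long, 21 were distal intergenic, 10 were in introns, 1 was in an exon, 1 in the 5′ UTR of Tal1 and 1 in a promoter of Erg. Distal intergenic regions thus made up 61.8%, against 54.4% of all regions, and promoters made up 20.7% of all regions. The distal share rested largely on Cdh5, which alone gave 15 of the 21 distal regions. The regions of Pecam1 and Tal1 were all inside the gene, and those of Vwf and Erg mostly so. For comparison, 57.5% of 21938 protein-coding genes had an assigned region, 35.4% had an assigned promoter region and 43.0% had a region within 3 kb of an annotated start. The median distance from any annotated start of a gene, internal starts included, to the nearest region was 5.6 kb over all protein-coding genes. Among the listed genes it was shortest for Erg (1.2 kb), Eng (2.3 kb), Vwf (3.4 kb), Tal1 (3.5 kb) and Pecam1 (3.9 kb). It was longer for Gata2 (11.1 kb), Ly6a (15.0 kb), Cdh5 (26.1 kb), Cd34 (37.2 kb) and Kit (157.5 kb). Short distances could be to an internal start. These nearest regions lay 29.3 kb downstream of the gene's own start for Eng, 60.6 kb for Erg and 91.2 kb for Vwf. Cdh5 stood at the top of the list by number, with 15 regions, and only 0.583% of protein-coding genes had as many. Vwf had 5 regions (6.32% of protein-coding genes had as many), Pecam1, Erg and Gata2 had 4 each (9.68%) and Tal1 had 2 (28.1%).

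The bases of the 34 regions were compared with those of all regions, as a description. Their median GC content was 48.0%, against 48.5% over all regions, and they held a median of 2.5 CpG dinucleotides, against 4.0. The median share of bases soft-masked as repeats was 13.9%, against 21.2%. It ran from 4.5% over the 5 Vwf regions to 69.2% over the 4 Gata2 regions. These comparisons mix classes of region, and only 1 of the 34 was in a promoter. Over all distal intergenic and all intron regions the median was 3.0 CpG in each class, with 36.5% and 21.5% of bases masked. Over all promoter regions up to 1 kb it was 26.0 CpG, with 5.2% masked. GATA factors recognise the letters GATA, and the motif AGATAA was therefore searched on both strands. It was found in 6 of the 34 regions (17.6%) and in 15.1% of all regions. Of the 6, 5 were Cdh5 regions and 1 was the Erg promoter region, and the Gata2 regions held no AGATAA. Other sequences with GATA were not searched, and the Gata2 window printed below holds AGATAG.

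Of the progenitor surface genes, none had a region of its own. The Kit locus (chr5:75574916-75656722), which encodes the receptor of stem cell factor, lay farthest of the 10 from any region. Its nearest region was chr5:75417002-75417401, a distal intergenic region assigned to Gm22084, with 7 and 10 reads in the M-EPC replicates and 9 and 13 in the OVX-EPC replicates. The Cd34 locus (chr1:194938819-194961279), which encodes a sialomucin of progenitors and vessels, had as its neighbour the A330023F24Rik promoter region chr1:194976210-194976609. That region held 7 and 15 reads from M-EPC, 6 and 7 from F-EPC and 3 and 4 from OVX-EPC. In unscaled reads M-EPC replicate 1 equalled F-EPC replicate 2 there, and both OVX-EPC replicates were below all other libraries. M-EPC replicate 1 held 200296 reads in the comparable regions and F-EPC replicate 2 held 252356, so equal reads are not equal signal.

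Ly6a (chr15:74994877-74998031), which encodes the sorted antigen Sca-1, likewise had no region of its own. The nearest was the promoter region of its neighbour Ly6i, chr15:74982223-74982622, with 5 and 6 reads from M-EPC, 1 and 2 from F-EPC and 9 and 1 from OVX-EPC. Both F-EPC replicates were low there, and the OVX-EPC replicates lay on either side of M-EPC. Ly6 genes form a cluster of similar copies, reads of low mapping quality had been discarded, and the effect of this on the Ly6a locus was not tested.

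Eng (chr2:32646595-32682669), which encodes the TGF-beta co-receptor endoglin, had no assigned region either, but 3 regions within its limits carried names of overlapping genes. The promoter region of Gm26236 at chr2:32675676-32676075 held 12 and 15 reads from M-EPC and 10 from each OVX-EPC replicate. A further Gm26236 promoter region at chr2:32676398-32676797 held 4 and 14 reads from M-EPC and 12 and 6 from OVX-EPC. An exon region of Fpgs at chr2:32680143-32680542 held 7 reads from each M-EPC replicate and 6 and 5 from OVX-EPC. In the first and the last of these the M-EPC replicates were higher, by a few reads, and in the other the groups overlapped. F-EPC replicate 2 had 3, 5 and 9 reads in the 3 regions, and F-EPC replicate 1 was past its stop.

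Pecam1 (chr11:106654217-106750628), on the minus strand, was the one member compared across all 3 groups. It encodes CD31, an adhesion molecule of endothelial junctions. All 4 of its regions were in introns, 20.7 kb to 75.0 kb downstream of its start. Summed over them there were 26 and 21 reads from M-EPC, 35 and 27 from F-EPC and 25 and 23 from OVX-EPC. As CPM, that is reads scaled to the library's total in the comparable regions, this was 130.0 and 89.2 from M-EPC, 121.0 and 107.0 from F-EPC and 120.0 and 103.0 from OVX-EPC. The M-EPC values enclosed those of the other groups, so no group stood apart. On the authors' scale of each pair of groups, with the sums taken as log2(value + 1), the log2 fold change of F-EPC over M-EPC was 0.00 ± 0.31 (SE), with a 95% interval of -0.62 to 0.62 (limma, Benjamini-Hochberg adjusted p = 0.997). For OVX-EPC over F-EPC it was -0.01 ± 0.30, with a 95% interval of -0.60 to 0.57 (limma, adjusted p = 0.994). For OVX-EPC over M-EPC it was 0.03 ± 0.32, with a 95% interval of -0.61 to 0.66 (limma, adjusted p = 0.976). Each of these comparisons shares a group with each of the others.

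Below the flat sum, the Pecam1 regions differed among themselves. The region of intron 13 at chr11:106675395-106675794 held 14 and 11 reads from M-EPC, 9 and 7 from F-EPC and 8 and 9 from OVX-EPC. Both M-EPC replicates were the highest of the 6 libraries there. It was the 1 Pecam1 region that passed the filter in the comparison of F-EPC with M-EPC, with a log2 fold change of -0.94 ± 0.43 (limma, unadjusted p = 0.0398, Benjamini-Hochberg adjusted p = 0.201), and it was not called. It had reached the filter through M-EPC only, the group where it was higher, so its p is conditioned on that difference. The region of intron 1 at chr11:106729743-106730142 held 5 reads from each M-EPC replicate, 14 and 10 from F-EPC and 7 and 10 from OVX-EPC. There both M-EPC replicates were the lowest. Without the filter its log2 fold change of F-EPC over M-EPC was 0.75 ± 0.52 (limma, Benjamini-Hochberg adjusted p = 0.568). The region of intron 2 at chr11:106699973-106700372 held 5 and 4 reads from M-EPC, 10 and 7 from F-EPC and 8 and 2 from OVX-EPC. The second region of intron 1, at chr11:106721075-106721474, held 1 to 3 reads in every library, too few for a comparison. The plot of the Pecam1 regions shows these values as CPM. In F-EPC against M-EPC, 0 of 1 tested region and 0 of 1 gene were called, with 1 region and 0 genes at an unadjusted p under 0.05 (limma). Of all regions and genes tested there, 1.79% of 8139 and 12.0% of 5594 were called, and 22.8% and 28.4% had an unadjusted p under 0.05. In OVX-EPC against F-EPC, 0 of 1 tested region and 0 of 1 gene were called, with 0 at an unadjusted p under 0.05 (limma). Of all regions and genes tested there, 0.0127% of 7897 and 0.0372% of 5383 were called, and 6.22% and 7.26% had an unadjusted p under 0.05. edgeR and DESeq2 on the reads called 0 as well, but DESeq2 gave the Pecam1 sum no adjusted p in F-EPC against M-EPC.

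**Figure D1:**
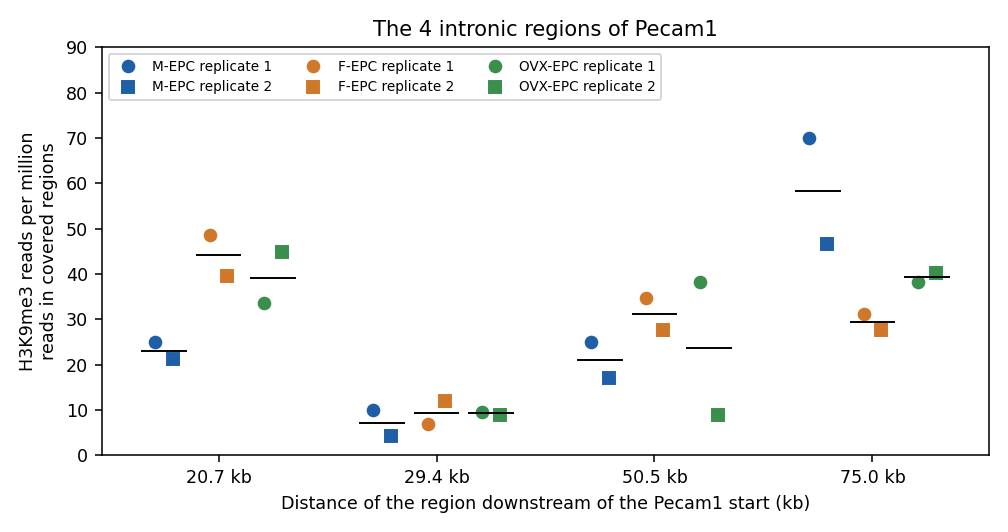
H3K9me3 at the 4 intronic regions of Pecam1 (x axis, distance downstream of the gene's start in kb) as CPM over the regions comparable across groups (y axis), with 1 point per library and a line at each group's mean of 2. M-EPC was lowest at 20.7 kb and highest at 75.0 kb, while F-EPC and OVX-EPC overlapped at every region but that at 75.0 kb.

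The intron 13 region is shown because it had the lowest p-value of the Pecam1 regions. Its central 300 bases at chr11:106675445-106675744 (mm10, plus strand, from RefSeq GRCm38.p6) held 6 CpG, and capitals mark the 8.33% of bases that the reference masks as repeats.
Pecam1: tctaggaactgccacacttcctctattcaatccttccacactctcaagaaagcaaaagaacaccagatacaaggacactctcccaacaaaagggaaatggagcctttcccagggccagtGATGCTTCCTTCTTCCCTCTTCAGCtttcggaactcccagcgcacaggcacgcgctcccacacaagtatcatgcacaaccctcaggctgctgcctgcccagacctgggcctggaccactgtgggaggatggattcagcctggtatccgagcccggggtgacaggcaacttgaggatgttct

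Cdh5 (chr8:104101625-104144511), on the plus strand, encodes VE-cadherin, the cadherin that joins endothelial cells. Its 15 regions were all distal intergenic and upstream, from 26.3 kb to 581.3 kb before its start (to the centre of a region), and none lay inside the gene. They were assigned to Cdh5 as the neighbouring gene, and no protein-coding gene lay among them. Of the 15, 5 overlapped the long non-coding RNA gene 4933400L20Rik. Summed over the 15 regions there were 78 and 129 reads from M-EPC and 139 and 134 from OVX-EPC, which on the authors' scale came to 83.8 and 116.6 against 140.7 and 126.7. Both OVX-EPC replicates were above both M-EPC replicates, and M-EPC replicate 1 was the lowest. The means were 100.2 ± 23.2 (SD, n = 2) in M-EPC and 133.7 ± 9.88 (SD, n = 2) in OVX-EPC. The log2 fold change was 0.43 ± 0.20 (SE), with a 95% interval of 0.04 to 0.82, and it was not called (limma, unadjusted p = 0.0301, Benjamini-Hochberg adjusted p = 0.175). The call turned on single libraries: without M-EPC replicate 2 the log2 fold change was 0.67 (limma, adjusted p = 0.0472), and without M-EPC replicate 1 it was 0.20 (limma, adjusted p = 0.745). The range of adjusted p over all alternatives was 0.0472 to 0.745.

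Among the Cdh5 regions 10 of 15 had a higher mean in OVX-EPC, against 50.4% of all regions. By mean signal the highest was chr8:103713275-103713674, with 13 reads from each M-EPC replicate and 18 and 10 from OVX-EPC, where the groups overlapped. Next came chr8:103696198-103696597, with 8 and 7 reads from M-EPC and 16 and 20 from OVX-EPC. Both OVX-EPC replicates were well above both M-EPC replicates there, with a log2 fold change of 1.14 ± 0.40 (limma, unadjusted p under 0.05, Benjamini-Hochberg adjusted p = 0.195). A pair of further regions, chosen after their values were seen, had unadjusted p-values under 0.05 in opposite directions. The region chr8:103669529-103669928 held 7 and 9 reads from M-EPC and 12 and 22 from OVX-EPC (log2 fold change 0.94 ± 0.42, limma, adjusted p = 0.272). The region chr8:103913025-103913424 held 10 and 22 reads from M-EPC and 6 and 7 from OVX-EPC (log2 fold change -1.09 ± 0.46, limma, adjusted p = 0.252). In both regions the replicates of the higher group differed by about as much as the groups did. All 3 Cdh5 regions with an unadjusted p under 0.05 had reached the filter of 10 in 2 libraries through their higher group only, so their p-values are conditioned on the difference. The remaining 11 regions held 0 to 19 reads in a library.

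The Cdh5 regions with the lowest p-value in each direction are shown for comparison of their bases, as the central 300 bases on the plus strand of mm10 (RefSeq GRCm38.p6). The window chr8:103696248-103696547, higher in OVX-EPC in all 4 library pairs, held 4 CpG, and the window chr8:103913075-103913374, higher in M-EPC, held 2. Both are free of masked repeats, so they show no capitals.
Cdh5, 405.2 kb upstream: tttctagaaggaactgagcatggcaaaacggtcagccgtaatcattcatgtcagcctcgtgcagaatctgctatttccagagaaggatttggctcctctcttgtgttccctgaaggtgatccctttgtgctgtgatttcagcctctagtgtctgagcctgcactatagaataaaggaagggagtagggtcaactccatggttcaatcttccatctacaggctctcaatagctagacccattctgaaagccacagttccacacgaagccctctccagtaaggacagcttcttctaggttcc
Cdh5, 188.4 kb upstream: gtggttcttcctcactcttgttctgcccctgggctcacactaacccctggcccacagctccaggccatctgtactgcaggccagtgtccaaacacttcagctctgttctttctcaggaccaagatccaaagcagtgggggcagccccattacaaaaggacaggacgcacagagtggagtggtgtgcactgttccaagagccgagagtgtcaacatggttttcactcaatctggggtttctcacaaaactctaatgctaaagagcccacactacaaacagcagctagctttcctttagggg

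The Cdh5 regions were part of a wider intergenic stretch. Between the end of Cdh11, which encodes another cadherin, and the start of Cdh5 lay 1316.0 kb with 28 regions. The 13 regions nearer to Cdh11 carried the name of Gm8730, annotated as a processed pseudogene, which was looked at after its values were seen. Those held 61 and 86 reads from M-EPC and 134 and 119 from OVX-EPC, so both OVX-EPC replicates were clearly higher. Their sum rose, with a log2 fold change of 0.78 ± 0.21 by limma (Benjamini-Hochberg adjusted p = 0.0115). The call was lost without M-EPC replicate 1 (adjusted p = 0.128), OVX-EPC replicate 1 (adjusted p = 0.233) or OVX-EPC replicate 2 (limma, adjusted p = 0.0617), and the range over all alternatives was 0.00365 to 0.233. Of the 28 regions of the stretch, 20 (71.4%) had a higher mean in OVX-EPC. The plot of the stretch shows the higher OVX-EPC values on both sides of the border between the assignments.

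**Figure D2:**
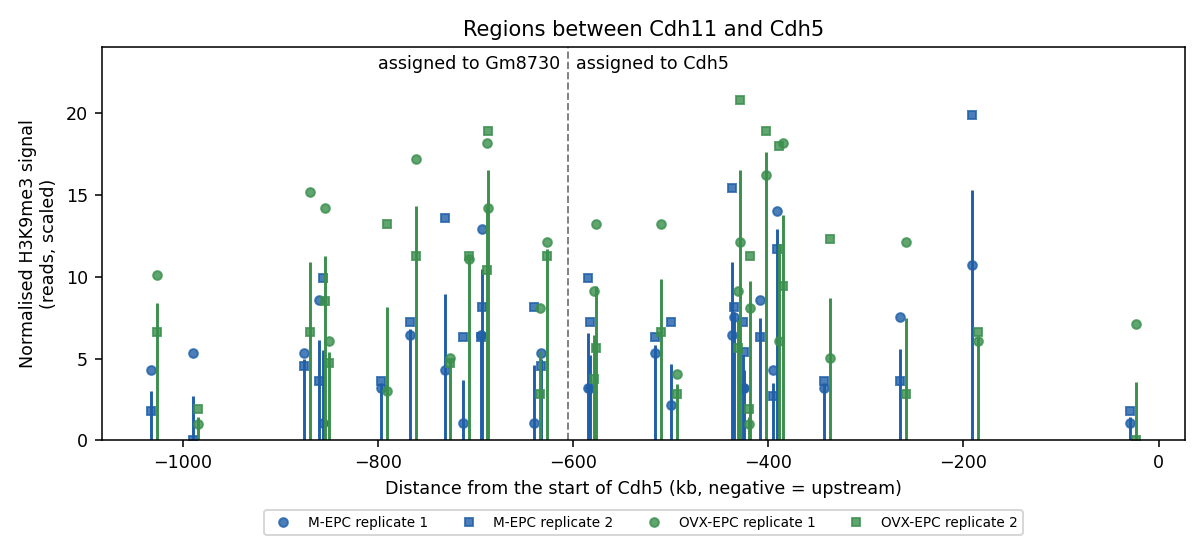
Normalized H3K9me3 signal (y axis, reads scaled by the authors' factors) of the 28 regions between Cdh11 and Cdh5 against distance from the start of Cdh5 (x axis, kb). Points are libraries, bars are means of 2 and the OVX-EPC values are drawn slightly to the right; 10 of 13 regions assigned to Gm8730 and 10 of 15 assigned to Cdh5 had the higher mean in OVX-EPC.

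Vwf (chr6:125546774-125686679), on the plus strand, encodes von Willebrand factor, the clotting protein that endothelial cells store and secrete. It had 4 regions inside the gene and 1 distal intergenic region 22.5 kb upstream. The sum was 43 and 48 reads from M-EPC and 36 and 33 from OVX-EPC, or 46.2 and 43.4 against 36.4 and 31.2 on the authors' scale. Both M-EPC replicates were above both OVX-EPC replicates. The log2 fold change was -0.40 ± 0.27 (SE), with a 95% interval of -0.93 to 0.13, and it was not called (limma, Benjamini-Hochberg adjusted p = 0.389). It ran from -0.51 to -0.29 when 1 library at a time was left out.

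The strongest Vwf region was in intron 21 at chr6:125628665-125629064, with 17 and 14 reads from M-EPC and 14 and 9 from OVX-EPC. The intron 7 regions lay close together. That at chr6:125572407-125572806 held 11 and 9 reads from M-EPC and 10 and 7 from OVX-EPC, and that at chr6:125572950-125573349 held 4 and 6 from M-EPC and 3 and 7 from OVX-EPC. In all 3 intron regions the groups overlapped. The exon 26 region at chr6:125637766-125638165 held 9 and 6 reads from M-EPC and 6 from each OVX-EPC replicate. The upstream region at chr6:125524097-125524496 held 2 and 13 reads from M-EPC and 3 and 4 from OVX-EPC, so 1 library gave most of its reads.

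Gata2 (chr6:88193891-88207032), on the plus strand, encodes a zinc finger factor of blood stem cells and endothelium, and it had the highest signal per region of the listed genes. All 4 of its regions were distal intergenic, in 15.4 kb of sequence 11.1 kb to 26.6 kb before its start, in the 88.6 kb between Rpn1 and Gata2. As all regions had the same length, reads per region could be compared between genes. Over M-EPC and OVX-EPC the mean was 22.1 reads per region and library for Gata2, 8.0 for Cdh5 and for Vwf, 5.94 for Pecam1, 4.94 for Erg and 4.25 for Tal1. Gata2 ranged over the 4 libraries from 17.8 to 26.0 and lay above every library of the other genes. The ranges of the others overlapped, at 5.2 to 9.27 for Cdh5, 6.6 to 9.6 for Vwf, 5.25 to 6.5 for Pecam1, 3.25 to 7.25 for Erg and 2.5 to 5.5 for Tal1, except that all Vwf libraries were above all of Pecam1 and of Tal1. The median over all regions was 6.5 reads.

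Of the Gata2 regions, chr6:88174777-88175176 held 31 and 36 reads from M-EPC and 32 and 41 from OVX-EPC, which put it at percentile 98.6 of the distal intergenic regions. The region chr6:88167340-88167739 held 23 and 33 reads from M-EPC and 17 and 22 from OVX-EPC. The region chr6:88173291-88173690 held 18 and 24 reads from M-EPC and 18 and 20 from OVX-EPC. In reads, the groups overlapped in the first and the last of these, and in the other both OVX-EPC replicates were the lower ones. The region chr6:88182387-88182786, nearest to the gene, held 12 and 11 reads from M-EPC and 4 and 12 from OVX-EPC. Summed, there were 84 and 104 reads from M-EPC and 71 and 95 from OVX-EPC, or 90.3 and 94.0 against 71.9 and 89.8 on the authors' scale. Scaled this way the groups did not overlap, though OVX-EPC replicate 2 was close to M-EPC replicate 1. The log2 fold change was -0.19 ± 0.21 (SE), with a 95% interval of -0.61 to 0.23 (limma, Benjamini-Hochberg adjusted p = 0.63).

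The strongest region of the listed genes is shown with its repeats. Its central window chr6:88174827-88175126 (300 bases, mm10, plus strand, RefSeq GRCm38.p6) held 2 CpG, and capitals mark the 56.7% of bases masked as repeats.
Gata2: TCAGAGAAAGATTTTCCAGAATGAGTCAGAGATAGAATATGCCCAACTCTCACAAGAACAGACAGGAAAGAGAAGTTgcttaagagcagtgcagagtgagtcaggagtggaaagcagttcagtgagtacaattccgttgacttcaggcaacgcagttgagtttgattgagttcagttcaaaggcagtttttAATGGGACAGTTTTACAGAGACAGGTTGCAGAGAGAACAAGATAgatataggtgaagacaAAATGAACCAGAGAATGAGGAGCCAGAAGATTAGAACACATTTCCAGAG

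Erg (chr16:95359169-95586593), on the minus strand, encodes an ETS factor that maintains endothelial identity, and it was the one member with a promoter region. That region, chr16:95525819-95526218, lay 1.2 kb from an internal start and held 7 and 2 reads from M-EPC, 1 from each OVX-EPC replicate and 2 from F-EPC replicate 2. A region in intron 2 at chr16:95477074-95477473 held 5 and 12 reads from M-EPC and 7 and 8 from OVX-EPC, and one in intron 1 at chr16:95564892-95565291 held 0 and 4 reads from M-EPC and 7 and 1 from OVX-EPC. At such counts neither region separated the groups. The distal region at chr16:95603158-95603557 held 4 and 11 reads from M-EPC and 6 and 3 from OVX-EPC. In these 3 regions F-EPC replicate 2 had 3, 1 and 10 reads. The sum was 16 and 29 reads from M-EPC and 21 and 13 from OVX-EPC, with overlapping groups and a log2 fold change whose value and SE were -0.37 ± 0.35 (limma, Benjamini-Hochberg adjusted p = 0.564). The 95% interval was -1.06 to 0.32, and leaving out OVX-EPC replicate 2 brought the value to 0.00. A region at the far end of the gene, chr16:95362505-95362904, carried the name of Kcnj15 and held 1 and 11 reads from M-EPC and 0 and 3 from OVX-EPC.

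Tal1 (chr4:115056426-115071755), on the plus strand, encodes a basic helix-loop-helix factor that starts blood formation. Its 5′ UTR region at chr4:115062979-115063378 was the richest in CpG of the 34, with 41, and held 6 and 4 reads from M-EPC and 2 and 3 from OVX-EPC. Both M-EPC replicates were above both OVX-EPC replicates by a few reads. Its intron 4 region at chr4:115066553-115066952 held 4 reads from each M-EPC replicate and 9 and 2 from OVX-EPC. The sum was 10 and 8 reads against 11 and 5, and the log2 fold change was -0.24 ± 0.61 (SE), with a 95% interval of -1.44 to 0.97 (limma, Benjamini-Hochberg adjusted p = 0.857). The interval is wide, and at this depth the values do not tell changes within it apart.

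**Figure D3:**
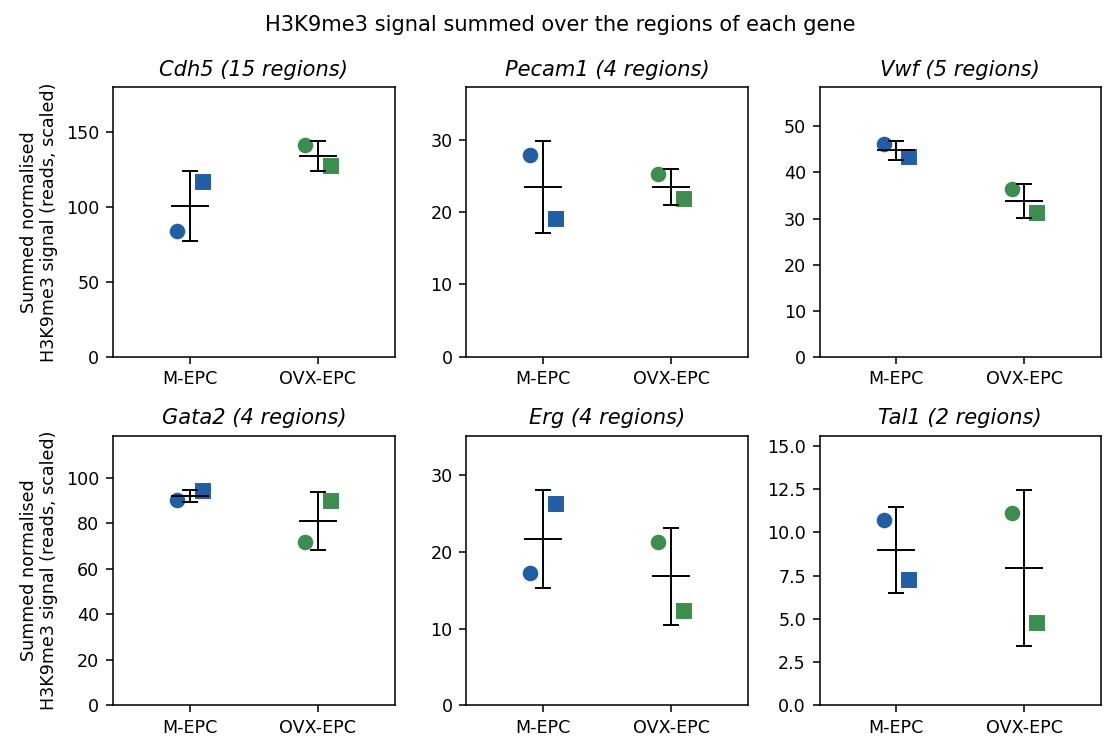
Summed H3K9me3 signal of each of the 6 genes with regions (y axis, reads scaled by the authors' factors, starting at 0) in M-EPC and OVX-EPC, with replicate 1 as circles and replicate 2 as squares. Horizontal lines are means and bars the SD of 2 libraries. The groups do not overlap for Cdh5 (higher in OVX-EPC), Vwf and Gata2 (lower in OVX-EPC).

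Over the members, no difference between OVX-EPC and M-EPC passed the test. Of the 6 genes tested 0 were called and 1 (Cdh5) had an unadjusted p under 0.05 (limma). Of all 13575 genes 5.56% were called and 22.0% had an unadjusted p under 0.05. Of the 34 regions 10 passed the filter of a signal of at least 10 in at least 2 libraries, 0 were called and 3, all of Cdh5, had an unadjusted p under 0.05 (limma). Of all 16931 regions 0.449% were called and 16.1% had an unadjusted p under 0.05. Those 3 regions had reached the filter through their higher group only, so their count supports no difference. edgeR called 0 member genes and 0 member regions. DESeq2 called 0 as well, but among the gene sums only Cdh5 (DESeq2, adjusted p = 0.187) and Gata2 (0.911) had an adjusted p. It gave none for the other sums or for those 3 Cdh5 regions, so it could not call them. The groups did not overlap for 3 of the 6 gene sums, and for 51.1% of all genes tested. The changes also have to be read against the scaling. Over all genes tested the median log2 fold change was -0.13 on the authors' scale and 0.03 after TMM scaling. The calls over all genes numbered 438 higher and 317 lower in OVX-EPC with the former and 526 higher and 59 lower with the latter. In the comparison of F-EPC with M-EPC the same medians were -0.20 and -0.08, and the calls were 293 higher and 376 lower against 347 higher and 151 lower. Relative to the median of all genes, the log2 change of OVX-EPC over M-EPC was 0.56 for Cdh5, 0.15 for Pecam1, -0.07 for Gata2, -0.11 for Tal1, -0.25 for Erg and -0.27 for Vwf. The plot of changes sets these beside their intervals.

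**Figure D4:**
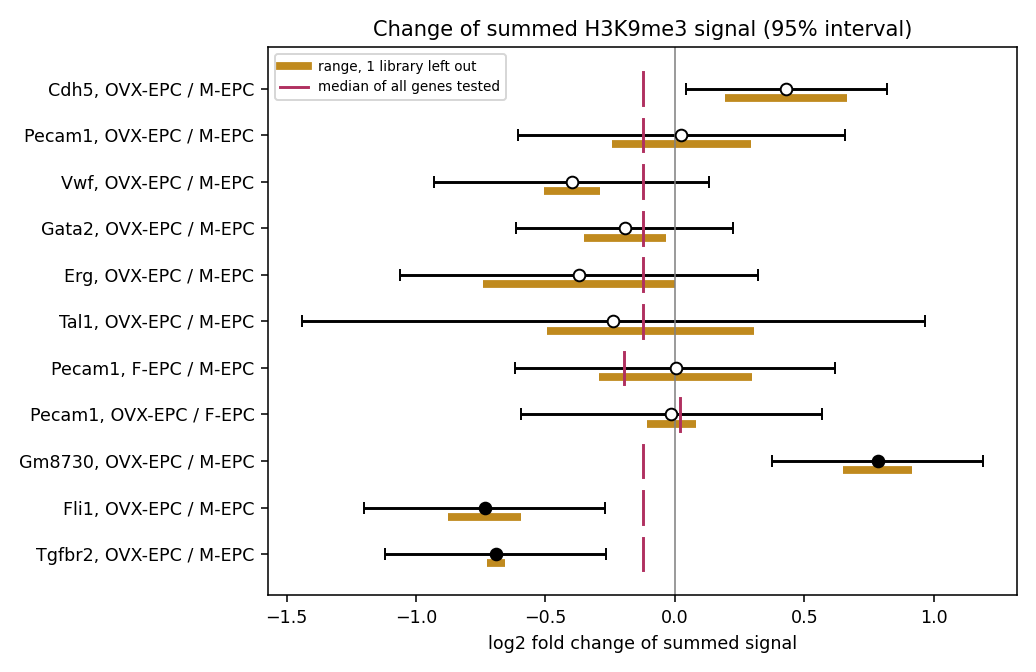
Log2 fold change of the summed H3K9me3 signal (x axis) for the members and for Gm8730, Fli1 and Tgfbr2 (y axis), with 95% intervals as black bars. Filled points were called at an adjusted p under 0.05, ochre bars span the values with 1 library left out and red marks show the median of all genes tested. No member is filled, and the intervals of all members but Cdh5 cross 0.

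A wider list of 96 other genes was read in the same way. It held genes of the same lineages and, as markers of other cells, 6 macrophage, 5 stromal and 3 lymphoid genes. Of the 96 genes 65 had a region and 42 were tested in OVX-EPC against M-EPC. The 42 include 4 macrophage genes, so the counts and medians of the list are not of the same lineages only. The test called 2 (4.76%, against 5.56% of all genes), both lower in OVX-EPC, and 10 of the 42 had an unadjusted p under 0.05 (limma), against 22.0% of all genes. The median log2 fold change was -0.32 over the list and -0.13 over all genes on the authors' scale, and -0.17 against 0.03 after TMM scaling. Of the 42 genes 4 had a value above 0 on the authors' scale, where the median of all genes was itself below 0. With TMM factors 11 of 41 did. The share of all genes above 0 was not computed.

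The called genes were Tgfbr2 and Fli1. Tgfbr2, which encodes the TGF-beta receptor that binds ligand, held 97 and 110 reads from M-EPC and 63 and 65 in OVX-EPC over 9 regions. Fli1, which encodes an ETS factor related to Erg, held 81 and 79 reads from M-EPC and 49 and 47 in OVX-EPC over 3 regions. On the authors' scale the groups did not overlap in either gene. The replicates of Tgfbr2 lay close together there, at 104.2 against 99.4 for M-EPC and 63.8 against 61.5 for OVX-EPC. Those of Fli1 were further apart for M-EPC (replicate 1 at 87.0, replicate 2 at 71.4), while OVX-EPC had 49.6 and 44.4. Tgfbr2 fell by 0.69 on the log2 scale (SE 0.217, adjusted p = 0.0373 by limma), and Fli1 fell by 0.74 (SE 0.235, adjusted p = 0.0421 by limma). Relative to the median of all genes the values were -0.57 and -0.61. Neither was called with TMM factors (adjusted p = 0.117 and 0.132), by edgeR (0.0791 and 0.0918) or by DESeq2 (0.167 and 0.201). Tgfbr2 was also lost without any 1 of the 4 libraries (limma, adjusted p = 0.0515 to 0.197), and Fli1 without M-EPC replicate 1 (adjusted p = 0.309), OVX-EPC replicate 1 (0.152) or OVX-EPC replicate 2 (0.248).

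By group, 1 of 13 tested genes of endothelial surface and junction proteins (Tgfbr2) and 1 of 8 endothelial transcription factor genes (Fli1) were called. In each of these groups 3 genes had an unadjusted p under 0.05 (limma). None (0) of 9 transcription factor genes and none (0) of 8 surface genes of blood stem and progenitor cells were called, with 1 unadjusted p under 0.05 in each (limma). Of all genes tested 5.56% were called and 22.0% had an unadjusted p under 0.05, so counts this small set no group apart. edgeR and DESeq2 called 0 of the wider list, though DESeq2 gave some of these genes no adjusted p. The genes with the lowest p among those higher in OVX-EPC were Ptprb, an endothelial phosphatase gene, at 0.32 ± 0.53 (5 and 15 reads from M-EPC, 14 and 9 from OVX-EPC), and Myb, a progenitor factor gene, at 0.26 ± 0.40 (18 and 10 against 15 and 18). Both overlapped between groups. As for markers of other cells, 4 of 6 macrophage genes were tested, with a median log2 fold change of -0.87, 0 calls and 2 unadjusted p-values under 0.05 (limma). None (0) of 5 stromal and none (0) of 3 lymphoid genes could be tested. H3K9me3 at a marker gene does not count the cells of that type, and the part of other cells in these values was not tested.

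In F-EPC against M-EPC 11 genes of the wider list were tested and 0 were called, with 2 at an unadjusted p under 0.05 (limma). edgeR and DESeq2 called 0, but DESeq2 gave no adjusted p for the genes named below and so could not call them. Of all genes 12.0% were called and 28.4% had an unadjusted p under 0.05. The lowest p was that of Lyz2, the lysozyme gene of macrophages, with 19 and 14 reads from M-EPC and 7 and 9 from F-EPC and a log2 fold change of -1.31 ± 0.46 (limma, Benjamini-Hochberg adjusted p = 0.0505). Both F-EPC replicates were below both M-EPC replicates, and Lyz2 had reached the filter through M-EPC only, the group where it was higher. Tcf3, which encodes an E protein that pairs with Tal1, was at -0.58 ± 0.28 (37 and 39 reads from M-EPC, 28 and 39 from F-EPC). Myb, at 0.29 ± 0.38, and Cxcr4, the receptor gene for the homing signal CXCL12, at 0.13 ± 0.26, had values above 0, and both overlapped between groups.

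In OVX-EPC against F-EPC 9 were tested and 0 were called, with 0 at an unadjusted p under 0.05 (limma), and edgeR and DESeq2 also called 0. Of all 5383 genes tested there 0.0372% were called and 7.26% had an unadjusted p under 0.05 (limma), so these counts of 0 are not particular to the list. Tcf3 (0.35 ± 0.27), Itga2b, the integrin gene of megakaryocytes (0.53 ± 0.54, past the filter through OVX-EPC only), Cd68, a macrophage gene (-0.34 ± 0.43), and Cxcr4 (-0.18 ± 0.24) had the lowest p-values on either side. The comparisons with F-EPC share its libraries.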

How the data were processed

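H3K9me3 CUT&Tag was compared in 6 libraries of 3 groups, which were taken from the labels. The authors trimmed paired-end reads to 25 bases, aligned them to mm10, removed duplicates with Picard, discarded reads with a mapping quality under 10, called peaks with MACS and annotated them with HOMER and ChIPseeker on the DolphinNext platform. The study's methods name Bowtie2 as the aligner and the submitters' processing notes name BWA and MACS2. The deposited tables, 1 per pair of groups, give the normalized signal of every library in each region. Columns of the authors' own comparison (log2 fold change, p-value, adjusted p-value) were deposited too and were not used. Strong regions are capped where duplicates are removed, and the mapping quality minimum lowers signal in repeats and gene copies.

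Divided by 1 factor per library, 100% of the signal values were whole reads (tolerance 1e-06), so reads were recovered, and edgeR and DESeq2 were run on them as alternatives. The design kept edgeR as the main test for raw counts only, which these are not. Every comparison was made within 1 table. The main test was limma 3.58.1 (R 4.3.3) with eBayes trend on log2(value + 1), for regions and for sums over the regions of a gene. At least 2 of the 4 libraries had to reach 10, and the Benjamini-Hochberg adjustment ran over all features, with a threshold of 0.05. On this scale the changes of weak features are understated. Comparisons with F-EPC used the 26999 regions before its first stop. Of all regions, 1126 had no gene name. They entered the region tests, and the gene sums under their Ensembl identifier. Alternatives were a pseudocount of 0.1, no filter, a minimum of 30, TMM and total scaling, edgeR 4.0.16, DESeq2 1.42.0, a replicate block, regions that are not distal intergenic, absent F-EPC reads taken as 0 and each library left out. The scripts were tested on simulated data.

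All members are named, with each region where a gene had at most 5 and otherwise the promoter regions and the 2 of highest mean. Other regions named are said to be chosen after their values were seen. Of the wider list, each called gene and the 2 of lowest p in each direction are named. The members and lists were chosen with earlier results of these data known, and the alternatives for genes outside the members, for Gm8730 and for single regions were added after seeing the data. Positions come from GENCODE M21 and bases from RefSeq GRCm38.p6. With 5 to 8 reads in a median region, single regions are imprecise.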

Additional observations from a re-analysis of the deposited data

How the results depend on the processing

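Of 291 values of single genes and regions under alternatives, 255 kept their direction and their side of the threshold, 15 changed sign, 20 lost a call and 1 gained one. The 20 lost calls were all of Tgfbr2, Fli1 or Gm8730. Of 71 counts of called members, 70 stayed at 0. With 1 library left out, the count of member genes in OVX-EPC against M-EPC ran from 0 to 1, the 1 being Cdh5 without M-EPC replicate 2. The changes of sign were in genes that were not called. With 1 library left out, the log2 fold change of OVX-EPC over M-EPC ran from -0.24 to 0.29 for Pecam1, from -0.743 to 0.000688 for Erg, from -0.49 to 0.30 for Tal1, from -0.25 to 0.77 for Myb and from -0.28 to 0.66 for Ptprb. That of F-EPC over M-EPC ran from -0.29 to 0.30 for Pecam1, from -0.25 to 0.51 for Cxcr4 and from -0.25 to 0.83 for Myb. That of OVX-EPC over F-EPC ran from -0.109 to 0.0818 for Pecam1 and from -0.55 to 0.19 for Cxcr4. With regions that are not distal intergenic, Cxcr4 in F-EPC over M-EPC was -0.19, and the cause was not tested. Libraries with the same replicate number did not deviate together (correlations -0.0969 to 0.0167). With few reads per region, this does not settle whether the numbers mark pairs. With the replicate block 0 member genes and 0 member regions were called. Gm8730 stayed called with it (limma, adjusted p = 0.0418), and Fli1 (0.0869) and Tgfbr2 (0.0887) were not. Over all features the counts moved more: with other settings, absent F-EPC reads taken as 0 aside, OVX-EPC against M-EPC gave 135 to 909 genes (755 in the main setting) and 12 to 145 regions (76), F-EPC against M-EPC gave 190 to 715 genes (669) and 4 to 231 regions (146), and OVX-EPC against F-EPC gave 0 to 2 genes (2) and 0 to 1 region (1). With 1 library left out these became 149 to 1059, 41 to 1046 and 0 to 10 genes, and 0 to 23, 0 to 181 and 0 to 16 regions. Pecam1, Erg and Tal1 did not reach a minimum of 30, Cdh5 and Gata2 have distal regions only, and Tal1 did not pass the filter with TMM factors or without M-EPC replicate 1 or OVX-EPC replicate 1, so these gave no value. DESeq2 gave no adjusted p for Pecam1, Vwf, Erg and Tal1 in OVX-EPC against M-EPC or for Pecam1 in F-EPC against M-EPC. Such missing values were counted as not called. Depth limits all of this, since single regions held few reads and 24 of the 34 were under the filter.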
